A study of Mus musculus with 2 samples.

Results

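The clustered protocadherin genes are the genes of mouse chromosome 18 whose symbols start with Pcdha, Pcdhb or Pcdhg, and 25 of the 37273 genes that GENCODE M1 places on the assembled chromosomes (build mm9) met that rule. They spanned chr18:37089939-38001527, a stretch of 912 kb, and were followed here in CTCF ChIP-seq of R1/E mouse embryonic stem cells (ESCs) with a further 100 kb on each side. The annotation gave each of the 22 beta genes a record of its own, but put nearly all alpha exons into 1 record, Pcdha11, next to a separate Pcdha3, and nearly all gamma exons into the record Pcdhgc5. The gene rule therefore counted 2 alpha, 22 beta and 1 gamma record. The single exons were recovered as 58 open reading frames of at least 2000 bp on the strand of the genes that were similar to one another in protein sequence, of which 14 were alpha, 22 beta and 22 gamma. Names of alpha and gamma exons other than Pcdha3 came from the order of the genes in RefSeq (GRCm38), whose starts kept the spacing found here to within 388 bp.

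Both libraries came from 1 ESC line that carried CTCF tagged with GFP on a stably integrated bacterial artificial chromosome, grown without feeder cells on gelatine with LIF. Cells were fixed with 1% formaldehyde and chromatin was sheared to about 500 bp. One library was made with 5 ug of a goat antibody against GFP (the CTCF library), the other with 5 ug of goat IgG (the IgG library). The labels name this second library both an IgG control and input DNA. It was read here as the IgG control, and it is the denominator of every ratio below. Only the tagged protein is seen by the GFP-antibody.

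Clustered protocadherins are cell adhesion proteins that give neurons a surface identity. Each variable exon carries its own promoter and codes for the ectodomain of 1 isoform. In the alpha and gamma clusters that exon is spliced to a small set of shared constant exons, while beta genes consist of a single coding exon. CTCF, a zinc finger protein that helps to fold chromosomes together with cohesin, is known to bind at many of these promoters and, in the alpha cluster, inside the exon as well. The C-type isoforms at the ends of the alpha and gamma clusters are known to follow other rules of promoter choice.

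The CTCF library held 8391191 tags and the IgG library 7988889, all 35 bp long and none repeated at 1 position and strand. With 1 library per antibody no difference has a replicate check. Intervals are 95% intervals. Those of ratios and densities cover counting error only. Those of shares treat genes, exons, summits or matches as independent, which related copies read in 1 library are not. The exact binomial test compared these libraries, not conditions. Ratios below are the CTCF tag count over the IgG tag count, each divided by the total of its library.

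Because the strand of the CTCF site is part of the pattern described here, the consensus of the search matrix is shown once, in the direction called plus. It came from 192 CTCF sequences listed with the study, and capitals mark positions with at least 0.8 bits of information:
CTCF matrix consensus: tggCCACcAGGGGGCacta
A match lies on the strand of a gene if it reads in this direction along the transcript. The search covered both strands at an exact p of 1e-05 for the matrix, and a looser p of 1e-04 is named where it is used. A match describes the letters of a window and is no proof of a site.

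CTCF was found at the start of nearly every annotated clustered protocadherin gene. A deposited peak lay within 1 kb of the start of 24 of the 25 genes (96.0%, exact interval 79.6 to 99.9%), against 8.38% of all genes. The first exon was overlapped by a peak in 23 genes, against 3.64% of all genes. First exons held a median of 8 IgG tags in the members and 0 over all genes. These shares were not matched for exon length. The exact binomial test with Benjamini-Hochberg adjustment over the 37273 genes called CTCF above IgG at the starts of 24 members, against 7.77% of all genes, and called none lower. Over all 25 starts together there were 1149 CTCF and 154 IgG tags, a ratio of 7.10 (5.999 to 8.46), and over the first exons 1207 and 242 tags, a ratio of 4.75 (4.13 to 5.47).

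Other protocadherins and another large family of clustered cell surface genes gave lower values. Of the 12 non-clustered protocadherins, which the annotation holds as 13 records, 3 records had a peak at the start and 1 was called, Pcdh1 with 30 CTCF and 6 IgG tags. Their summed ratio was 2.04 (1.47 to 2.85), and none had a peak in the first exon. Of 1251 olfactory receptor genes, which like the clustered protocadherins are tandem copies of one another, 11 had a peak at the start (0.879%), and their summed ratio was 0.804 (0.780 to 0.829).

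The alpha record that carries the outermost start, Pcdha11, had the highest count, with 85 CTCF and 2 IgG tags within 1 kb (adjusted p = 1.04e-17, exact binomial test). Pcdha3 had 67 and 7 tags (adjusted p = 3.40e-10 by the same exact test), and the gamma record Pcdhgc5, read at the start of its first annotated transcript, had 48 and 2 (adjusted p = 1.52e-09). All of these starts had a peak, the highest score being 345 at the alpha record. The start of the record Pcdha11 is the start codon of the exon Pcdha1, and that of the record Pcdhgc5 lies just before the exon Pcdhga3. The exon Pcdhgc5 itself had 1 CTCF and 2 IgG tags in the 1 kb before its start codon. Read at the start of the transcript with the longest coding sequence, the records Pcdha11 and Pcdhgc5 had no peak within 1 kb.

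Among the beta genes the starts ranged from 11 to 76 CTCF tags, with a median of 44, and from 1 to 14 IgG tags. Pcdhb17 was highest with 76 CTCF and 10 IgG tags, followed by Pcdhb11 with 59 and 7 and Pcdhb3 with 57 and 8. At the low end of the called genes stood Pcdhb5 and Pcdhb9, each with 30 CTCF and 1 IgG tags, so that few tags there came with a control that was nearly empty. The last gene of the block, Pcdhb22, had 38 and 14 tags and the weakest call (adjusted p = 0.0283, exact binomial test), and its ratio of 2.58 was the lowest of the 21 called beta genes. The other 15 (Pcdhb2, Pcdhb4, Pcdhb6, Pcdhb7, Pcdhb8, Pcdhb10, Pcdhb12 to Pcdhb16 and Pcdhb18 to Pcdhb21) held 33 to 50 CTCF and 3 to 10 IgG tags, with ratios between 3.91 and 10.9.

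Pcdhb1, the first beta gene, was the exception. It had 11 CTCF and 6 IgG tags within 1 kb of its start (ratio 1.75, 0.592 to 5.75, adjusted p = 0.820, exact binomial test), 14 and 12 tags over its exon, no peak within 2 kb, and no matrix match even at p 1e-04 from 1 kb before to 2800 bp past its start codon. Its interval still included the ratio of the lowest called beta gene, Pcdhb22, so a difference between them was not detectable at this depth. Pcdhb6 was the only other gene without a peak in its first exon, with 14 CTCF and 4 IgG tags there, while a peak of score 133 lay before it. The annotated first exon of Pcdhb8 is only 10 bp long and that of the annotated pseudogene Pcdhb20 182 bp, so their exon counts of 2 and 4 CTCF tags say little. Both reading frames were full length, at 2340 and 2400 bp.

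**Figure D1:**
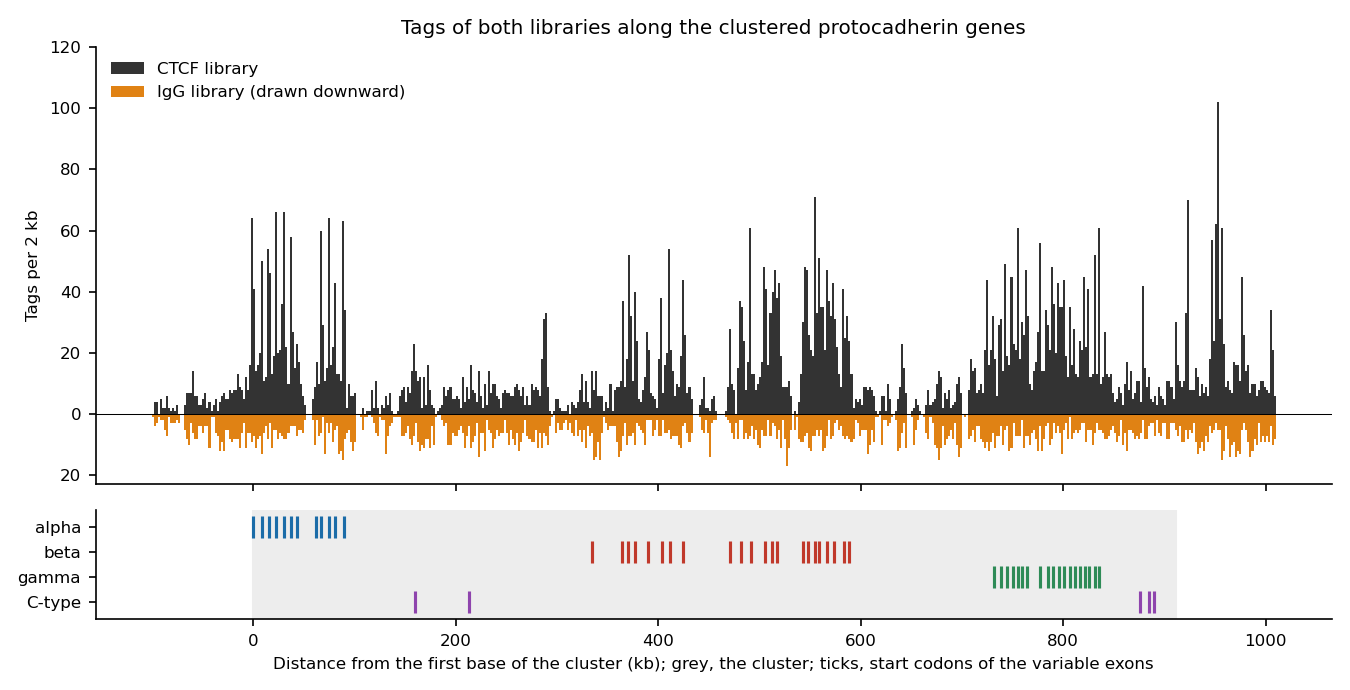
Tags per 2 kb of the CTCF library (upward) and the IgG library (downward) against the distance from the first base of the cluster in kb, with the start codons of the 58 variable exons as ticks below. CTCF tags pile up over the alpha, beta and gamma exons and past the end of the cluster, while IgG tags stay low throughout and the C-type exons lie between the blocks of high counts.

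Reading the 58 exons 1 by 1 set the C-type exons apart as a group from the other alpha, beta and gamma exons. In the 1 kb before the start codon, here called the promoter window, a deposited summit lay at 11 of 12 alpha, 21 of 22 beta and 18 of 19 gamma exons of the A and B types, and at 0 of 5 C-type exons. The summed ratio was 9.01 (6.66 to 12.5) in alpha, 7.22 (5.75 to 9.17) in beta, 12.3 (9.15 to 16.8) in gamma and 2.38 (1.18 to 5.10) in the C-types. The intervals of the first 3 overlapped one another, and that of the C-types lay below all of them.

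**Figure D2:**
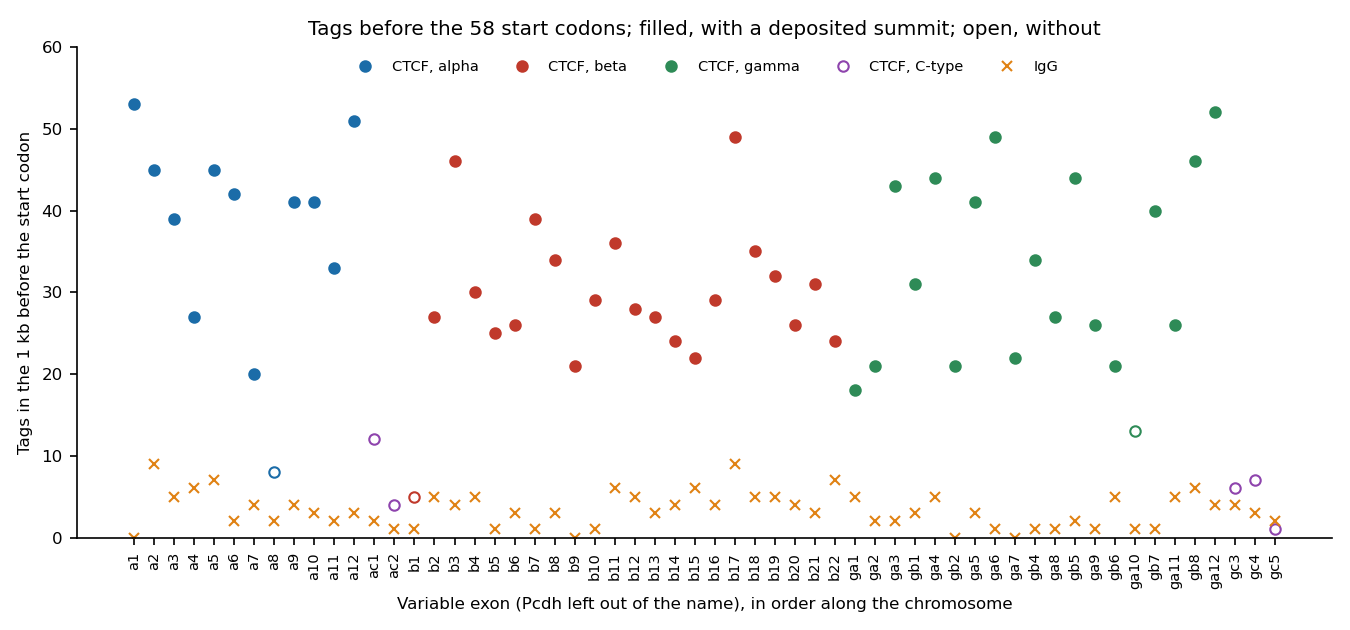
CTCF tags (circles, filled where a deposited summit lies in the window) and IgG tags (crosses) in the 1 kb before each of the 58 start codons, in order along the chromosome. All exons with a summit have 18 or more CTCF tags, and the 8 open circles are Pcdha8, Pcdhb1, Pcdhga10 and the C-type exons, with 1 to 13.

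In the alpha cluster the promoter windows held 8 to 53 CTCF tags with a median of 41, and 0 to 9 IgG tags. Pcdha1, the first exon of the cluster, was highest with 53 CTCF and 0 IgG tags, Pcdha12, the last before the C-types, had 51 and 3, and Pcdha2 and Pcdha5 had 45 each against 9 and 7. The summits lay at a median position of -180 bp, counted from the start codon with negative positions before it. Low counts were seen at Pcdha4 (27 and 6), Pcdha7 (20 and 4) and Pcdha8 (8 and 2). Pcdha8 was the only alpha exon of this kind without a promoter summit, although a match at p 1e-04 stood on its gene strand as in the other 11.

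A second CTCF signal lay inside the alpha exons. The first 1200 bp of the 12 reading frames held 334 CTCF and 37 IgG tags (ratio 8.59, 6.11 to 12.4), with the densest 50 bp bin at 500 to 550 bp (68.3 CTCF tags per kb and exon). The IgG library also had its densest bin of this window there, at 550 to 600 bp (13.3 per kb and exon), and its part in the CTCF signal was not tested beyond the ratio. In all, 7 exons had a summit of their own there, between 443 and 817 bp. Pcdha4 had 47 CTCF and 1 IgG tags in this window of 1200 bp, against 27 and 6 in the 1000 bp before the start codon, and Pcdha5 had 44 and 2 against 45 and 7. A match on the gene strand lay 453 to 552 bp into the exon in 11 of 12 alphas, 9 of them at p 1e-05. The 1 alpha without it, Pcdha2, had 7 CTCF and 5 IgG tags in that window, fewer CTCF tags than any of the 11 others, which held 13 to 47. Its promoter window was among the highest in CTCF tags (45), but with 9 IgG tags its ratio was 4.76 (2.30 to 11.1). Peaks at Pcdha9 and Pcdha12 ran from the promoter into the exon as 1 interval, so that their exon signal has no summit of its own. In the following 1600 bp the ratio was 3.13 (2.20 to 4.56).

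**Figure D3:**
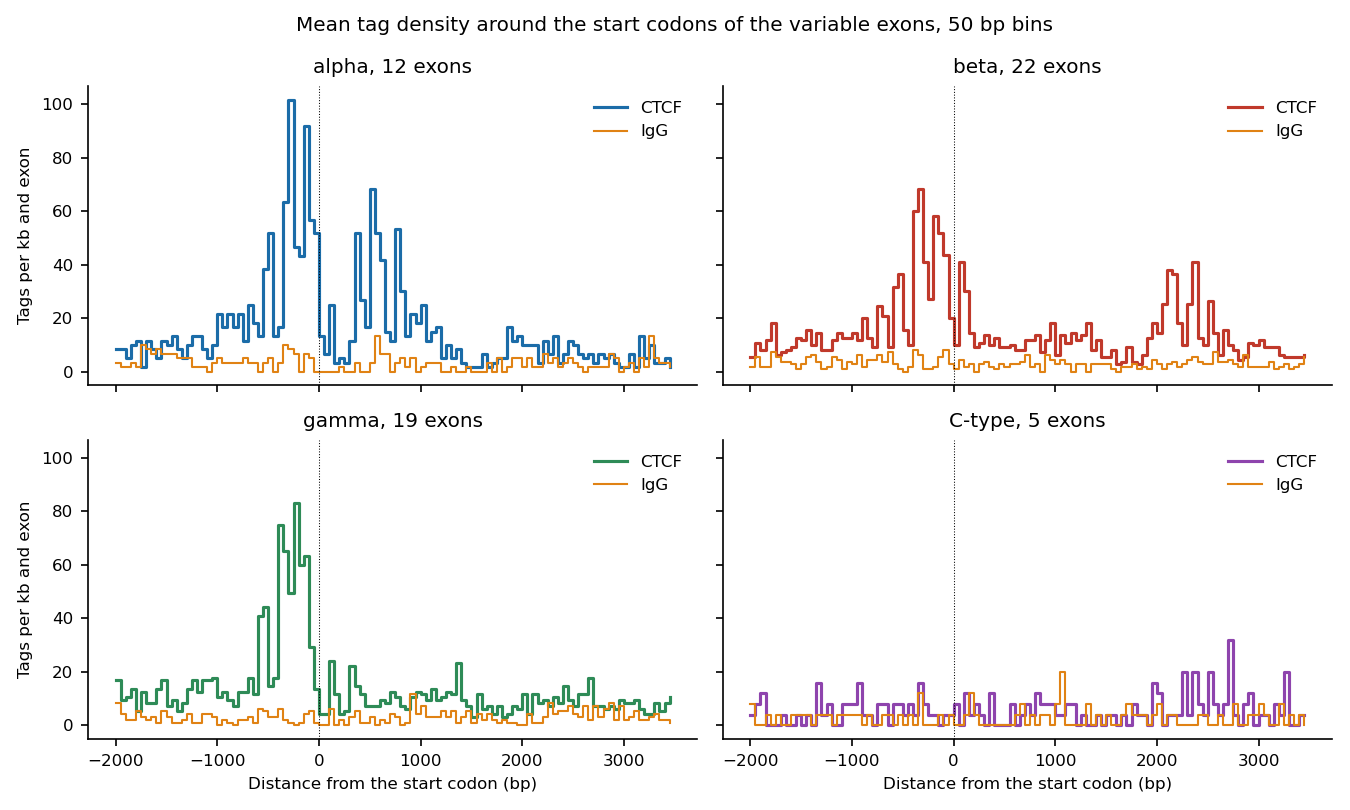
Mean tag density (tags per kb and exon, 50 bp bins) of both libraries from 2000 bp before to 3500 bp past the start codon for the alpha, beta, gamma and C-type exons. All but the C-types rise before the start codon, alpha exons have a second rise near 500 bp and beta exons near 2350 bp. The IgG density stays at or below 13.3 in the alpha, beta and gamma panels. Its highest alpha bins are tied, at 550 to 600 bp within the second alpha rise and at 3250 to 3300 bp outside it.

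The beta genes shared the promoter signal. Where they had a summit in the 2800 bp past the start codon, it lay near the end of the reading frame. Their promoter windows held 5 to 49 CTCF tags with a median of 28.5, and 0 to 9 IgG tags. Pcdhb17 (49 CTCF, 9 IgG), Pcdhb3 (46 and 4) and Pcdhb7 (39 and 1) were highest, and Pcdhb1 (5 and 1), Pcdhb9 (21 and 0) and Pcdhb15 (22 and 6) lowest. A match on the gene strand stood between -258 and -154 bp in 21 of the 22 genes, 14 of them at p 1e-05, and all 21 had a summit. Pcdhb1 was the only gene without the match and without the summit.

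Summed over the beta genes, the ratio was 4.67 (3.61 to 6.11) in the first 1200 bp of the exon and 4.96 (3.98 to 6.24) in the late window (1200 to 2800 bp), and these intervals overlapped. A peak overlapped the first 1200 bp in 20 of the 22 genes, with the densest bin at 50 to 100 bp (40.9 CTCF tags per kb and exon). No beta reading frame had a summit in its first 1200 bp. In 11 genes a summit lay 2049 to 2444 bp past the start codon, near the end of the coding sequence. These were Pcdhb3, Pcdhb8, Pcdhb10, Pcdhb12 to Pcdhb15 and Pcdhb17 to Pcdhb20. Late windows with a summit held 22 to 42 CTCF tags against 5 to 23 in the 11 without, and 1 to 5 IgG tags against 2 to 12. Pcdhb13 was highest with 42 CTCF and 4 IgG tags. The late window is longer than the promoter window (1600 against 1000 bp), and per kb Pcdhb13 had 26.2 CTCF tags late and 27 before its start codon. Per kb the late window held more CTCF tags than the promoter window in 1 of the 22 genes, Pcdhb15, with 23.1 against 22.

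Most matches in the late beta windows lay on the opposite strand, most of them at p 1e-04 only. A match on the strand opposite to the gene lay 2187 to 2250 bp past the start codon in 14 beta genes, 4 of them at p 1e-05. At p 1e-04 the late windows of the beta genes held 23 matches, 5 of them on the strand of the gene. These lay in Pcdhb8 (2207 bp), Pcdhb11 (2210 bp), Pcdhb7 (2306 bp), Pcdhb10 (2752 bp) and Pcdhb16 (1493 bp). Pcdhb8 and Pcdhb11 also held a match on the opposite strand, at 2785 and 2366 bp. Within 150 bp of the 11 late summits the best match was on the opposite strand at 2 with p 1e-05 and at 7 with p 1e-04, and on the gene strand at 0 and 1. Of the 14 late windows with the opposite-strand match between 2187 and 2250 bp, 9 had a summit, with a ratio of 5.89 (4.51 to 7.82). Of the 8 without it 2 had a summit, with a ratio of 3.17 (2.13 to 4.84). These were Pcdhb8, with a match on the gene strand at 2207 bp, and Pcdhb19, with none. The intervals of the ratios overlapped. Pcdhb4, Pcdhb5, Pcdhb16, Pcdhb21 and Pcdhb22 carried the match but had no late summit.

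Gamma promoters were as rich in CTCF tags but had few matrix matches. Their promoter windows held 13 to 52 CTCF tags with a median of 31, and 0 to 6 IgG tags. Pcdhga12 (52 CTCF, 4 IgG), Pcdhga6 (49 and 1) and Pcdhgb8 (46 and 6) were highest. Pcdhga10 (13 and 1), Pcdhga1 (18 and 5), the first exon of the cluster, and then Pcdhga2 (21 and 2), Pcdhgb2 (21 and 0) and Pcdhgb6 (21 and 5) were lowest, and Pcdhga10 alone had no summit. Summits lay at a median position of -282 bp. A match on the gene strand between -400 and -50 bp was found at 4 of 19 exons even at p 1e-04, against 12 of 12 in alpha and 21 of 22 in beta. The 15 gamma promoters without it still held 458 CTCF and 40 IgG tags, a ratio of 10.9 (7.88 to 15.5), and 14 of them had a summit. Inside the gamma exons the ratios were lower, 3.54 (2.67 to 4.75) in the first 1200 bp and 2.56 (2.04 to 3.24) after it, with late summits in Pcdhgb4 and Pcdhga8 only. A peak overlapped the first 1200 bp at 15 of the 19 exons, without a summit there.

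The C-type exons had few CTCF tags in the promoter window. Their IgG density there was 2.4 tags per kb, against 2.53 in gamma, 3.86 in beta and 3.92 in alpha. Pcdhac1 had 12 CTCF and 2 IgG tags, Pcdhac2 had 4 and 1, and Pcdhgc3 had 6 and 4. Pcdhgc4 had 7 and 3, and Pcdhgc5, the last exon of the cluster, had 1 and 2. These counts are small, and for 0 summits in 5 exons the exact interval reaches 52.2%. The promoter ratio of Pcdhac1 was 5.71 (1.27 to 52.6), and at the looser p a match on its gene strand lay at -325 bp. The intervals of Pcdhac2 (ratio 3.81), Pcdhgc3 (1.43), Pcdhgc4 (2.22) and Pcdhgc5 (0.476) included 1 and overlapped that of Pcdhac1. Whether the C-types differ among themselves was not tested. Pcdhac1 also had 14 CTCF and 1 IgG tags in the first 1200 bp of its exon, without a peak. The 1 peak near a C-type exon lay 2647 bp past the start codon of Pcdhgc3, past its reading frame of 2616 bp, with a score of 186 and 32 CTCF tags against 1 IgG tag.

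**Figure D4:**
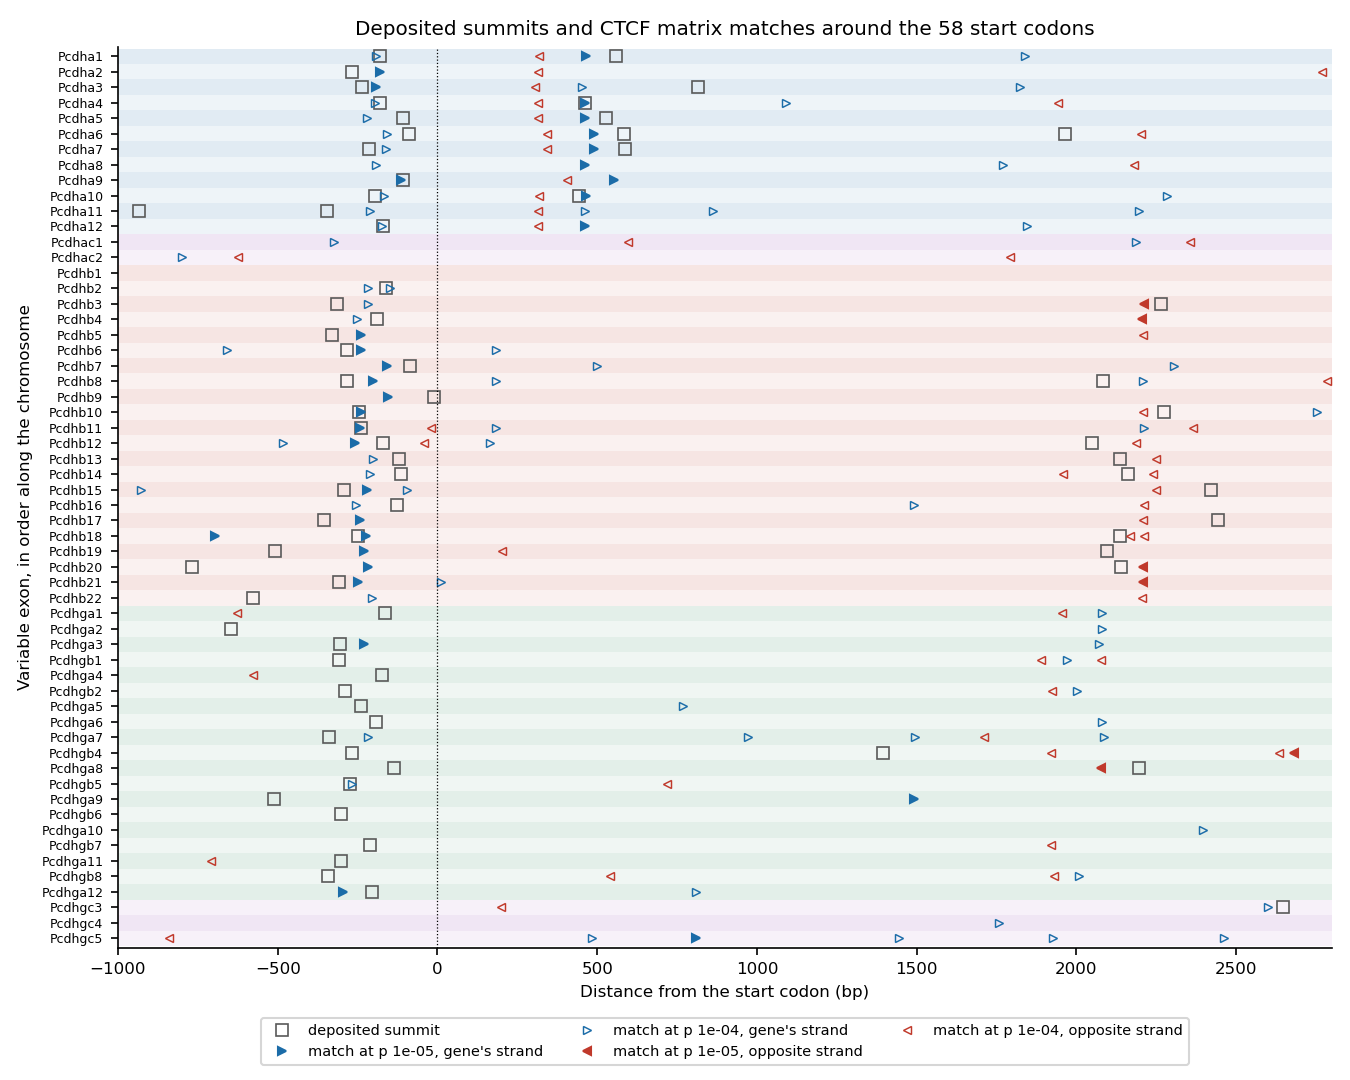
Deposited summits (squares) and matrix matches (triangles, right for the gene's strand and left for the opposite strand, filled at p 1e-05, open at p 1e-04) against the distance from the start codon in bp, 1 row for each of the 58 exons. Matches on the gene's strand line up before the start codon of alpha and beta exons and near 460 bp in alpha exons, and matches on the opposite strand line up near 2208 bp in beta exons.

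Matches near the annotated gene starts lay on the strand of the gene without exception. Within 1 kb of the start, 17 of the 25 genes held a match at p 1e-05 (68.0%, against 26.5% of all genes), and all 18 matches read along the gene (exact interval 81.5 to 100%), against 53.1% of the 11941 matches at the starts of all genes. The exons share sequence by descent, so that these matches are not independent of one another. At p 1e-04 the share was 88.6% of 44 matches. A match within 150 bp of the summit was rarer here than elsewhere. It was found at 37 of the 91 summits of the region (40.7%, 30.5 to 51.5%), against 73.6% (73.1 to 74.1%) of the 33756 summits on the assembled chromosomes, although the median score of the region, 155, was above that of all deposited peaks, 117.

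Across the region CTCF peaks were dense. The cluster with 100 kb on each side held 91 peaks, or 81.9 per Mb (65.9 to 101), against 10.99 per Mb on the whole of chromosome 18 and 12.7 per Mb on all assembled chromosomes. Of the 91 summits, 51 lay in promoter windows, 7 in the first 1200 bp of an exon, 15 in late windows, 9 elsewhere in the cluster, 1 in the 100 kb before it and 8 in the 100 kb after it. The density was 213 per Mb across the alpha exons (130 to 329), 128 across the beta exons (88.3 to 180) and 213 across the gamma exons (135 to 320). These spans were 0.0937, 0.257 and 0.108 Mb long. The alpha and gamma spans left out the C-type exons, which had few peaks around them. The beta span kept Pcdhb1, which had no peak. The spans are thus unlike, and the densities do not rank the whole alpha, beta and gamma clusters.

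Long stretches without peaks lay between these blocks, but not only there. The longest, 196 kb, held Pcdhac1, Pcdhac2 and the lincRNA Gm10544, with 626 CTCF and 597 IgG tags (ratio 0.998, 0.891 to 1.12). The next, 135 kb between the beta and gamma blocks, held the starts of Slc25a2, a mitochondrial carrier gene, and Taf7, which codes for a subunit of the general transcription factor TFIID, with 413 and 384 tags (ratio 1.02, 0.889 to 1.18). Another, of 75.3 kb, held Pcdhb1 (207 and 235 tags, ratio 0.839, 0.692 to 1.02). A stretch of 43.1 kb lay inside the beta block, between Pcdhb8 and Pcdhb9 (80 and 66 tags, ratio 1.15, 0.823 to 1.62). Pcdhgc4 and Pcdhgc5 fell in a gap of 42.3 kb, with 207 and 115 tags (ratio 1.71, 1.36 to 2.17).

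Between the alpha and beta blocks a pair of peaks stood alone, at chr18:37376926-37377641 (score 139, 24 CTCF and 2 IgG tags) and chr18:37377928-37378546 (score 98.0, 18 and 1 tags). They lay past the last alpha exon, between genes, and both had a match on the strand opposite to the protocadherin genes. The highest scores of the region lay past the gamma cluster, in introns of Diap1, which codes for a formin that nucleates actin filaments. The peak at chr18:38042706-38044173 scored 731 with 94 CTCF and 6 IgG tags, and the peak at chr18:38011561-38012847 scored 685 with 87 and 4. Peaks at chr18:38036897-38038155 (score 372, 57 and 5 tags) and chr18:38066625-38068384 (score 297, 57 and 2 tags) were also among the 10 highest.

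The strand of the matches at the summits split by place. Taking the best match at p 1e-05 within 150 bp, 17 promoter summits and 6 summits in the first 1200 bp of an exon had a match on the strand of the protocadherin genes and 0 had one on the opposite strand. The 3 summits in late windows with a match had it on the opposite strand. So did 4 of 5 elsewhere in the cluster, the 1 before the cluster and all 5 with a match in the 100 kb after it. At p 1e-04 the promoter summits counted 33 along the genes and 0 against, and the summits in late windows 2 and 8. Late windows run past the ends of the reading frames, and the summit at Pcdhgc3, 1 of these 2, lay past its frame.

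**Figure D5:**
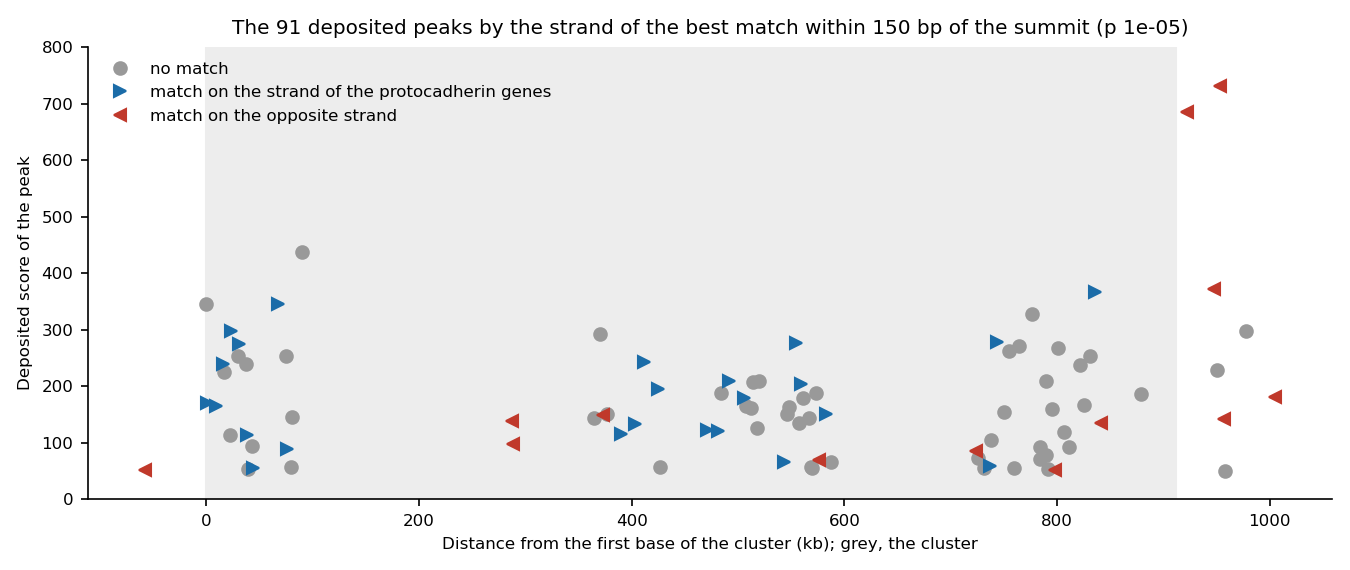
Deposited score of the 91 peaks against the distance from the first base of the cluster in kb, by the strand of the best match within 150 bp of the summit at p 1e-05. Matches along the genes lie within the alpha, beta and gamma blocks, and the peaks past the end of the cluster, up to a score of 731, carry matches on the opposite strand or none.

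The control library and the alignability of the sequence varied less than the CTCF tags. Promoter windows held 3.31 IgG tags per kb (2.86 to 3.81), the whole cluster 3.01 and the whole of chromosome 18 3.26. The 100 kb before the cluster held 2.72 (2.41 to 3.06) and the 100 kb after it 4.03 (3.65 to 4.44). On average 98.5% of 35-mers in the promoter windows occurred only once on the assembled chromosomes, with the lowest share, 76.6%, at Pcdhgb8. The share was 80.8% over the cluster, 70.6% in the 100 kb before it and 97.4% in the 100 kb after it. Inside the exons it was below that of the promoter windows, 89.6% in the first 1200 bp and 88.3% after it. In the first 1200 bp it was 76.8% in alpha, 89.5% in beta and 95.2% in gamma, and 52.6% in Pcdha7. Counts inside exons, and above all inside alpha exons, may therefore miss tags of near-identical copies in both libraries. Outside the peaks the cluster kept a ratio of 1.52 (1.44 to 1.59), above the 0.926 (0.921 to 0.931) of the whole chromosome with its peaks included.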

How the data were processed

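CTCF and control ChIP-seq tags of 2 libraries were analysed. The authors aligned reads to mm9 (the aligner is not given in the sources used here) and deposited 1 line per tag with a count of 1, not normalised, and for the CTCF library peaks with a score of MACS 1.4 (at least 50 in the file) and summits with a signal, the pileup height in tags.

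Tags were moved 94 bp toward the fragment centre, from a fragment length of 188 bp at the 1000 highest peaks. Windows of 1 kb on each side of the outermost gene start and first exons came from GENCODE M1, and an overlap of at least 1 bp counted. The two-sided exact binomial test was run on all 37273 genes with Benjamini-Hochberg adjustment at 0.05. Ratios and shares carry exact intervals and densities Poisson intervals. The matrix had a pseudocount of 1 and base frequencies of 0.29 (A, T) and 0.21 (C, G). Reading frames were compared with blastp 2.17.0 (e-value 1e-20, at least 500 residues). Python 3.11.15, numpy 2.4.6, scipy 1.17.1 and pandas 2.3.3 were used. The binomial test, the ratio interval, the matrix search, the alignability count and the search for reading frames were tested on simulated data. The other steps were not tested in this way. Promoter, early and late exon windows and the ranges for match positions were set after seeing the data. Members and lists were chosen with earlier results of these data known. Named were members with a peak, C-type members, first and last members, the 3 highest and 3 lowest of each subfamily, outside peaks among the 10 highest scores, and other genes with a peak at the start. No sequence of the cluster is reported here.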

Additional observations from a re-analysis of the deposited data

How the results depend on the processing

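No paired analysis was possible because each antibody had 1 library. Of 33 alternatives, 5 of them chosen after seeing the data, 23 left a result within 1.5 times a count or inside its interval. The ratio at the gene starts was 10.4 with 500 bp on each side, 5.11 with 2 kb, and 1.75 without the genes that have a peak, which leaves Pcdhb1 alone. Genes with a summit inside the first exon were 15. Peaks per Mb were 59.4 at a score of at least 100, and 50.0 in the 100 kb on each side without the cluster. The share of summits with a match was 68.1% at p 1e-04 and 14.3% within 50 bp. Over all 33756 summits the same shares were 85.1% and 36.4%. With the start codons of the 58 variable exons in place of the gene records, 50 had a peak and 28 a match within 1 kb. Of the 24 called genes, 1 was lost at an adjusted p of 0.01, Pcdhb22, and 1 with 500 bp on each side, Pcdhb15 (24 CTCF and 7 IgG tags, adjusted p = 0.0829, exact binomial test). Counting 1 tag per position and strand is void, since no tag was repeated. In single windows of few tags, only large ratios can be told from 1.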

Other observations

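Of the other genes that start within the region, 4 had a peak within 1 kb of the start and 5 had none. Gm10545, whose start lies on the opposite strand inside Pcdha12, had 73 CTCF and 8 IgG tags within 1 kb, and the snoRNA gene SNORA40, before Pcdhga6, had 37 and 8, counts that share tags with those exons. The start of 3222401L13Rik, between the beta and gamma blocks, had 38 and 11 tags, and that of Diap1 had 38 and 5. No peak lay at the starts of Gm6756 (8 and 6 tags), Gm10544 (7 and 2), Slc25a2 (23 and 9), Taf7 (8 and 4) and Gm16882 (11 and 8), which starts on the opposite strand inside Pcdhga12.

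In 11 of 12 alpha exons a match at p 1e-04 on the opposite strand lay 306 to 405 bp past the start codon, before the match on the gene strand, and none of these reached p 1e-05. Over the 12 alpha promoters the score of the match and the CTCF tag count had a Spearman rho of 0.0246, and over the 21 beta promoters with a match 0.248, given as a description of exons that share 1 library.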
